A study of Mus musculus with 24 samples.

Results

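Intestinal organoids grown from adult mice were compared with organoids grown from fetal mice after both had spent 30 days in culture, to see what of the origin remained. The comparison used 8 of the 24 arrays of the series, those titled group4 for adult organoids at day 30 and those titled group2 for fetal organoids at day 30, with 4 arrays in each group. All 30702 genes with a probe set naming 1 gene were compared. The label of the fetal organoids gives stage E19, shortly before birth. All organoids were grown in ENR, the standard organoid medium with EGF, Noggin and R-spondin, and no treatment is named. The same contrast at day 3, with 4 adult and 4 fetal arrays, and 4 arrays of adult against 4 arrays of newborn (P0) intestine served for comparison. The labels give neither strain nor sex, nor the stretch of intestine, the age of the adults, the number of passages or whether the 4 arrays of a group came from separate animals, so that p-values measure the spread between these arrays only. Whether day 3 and day 30 arrays came from the same cultures is not stated either.

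An organoid of this kind is a culture of intestinal epithelium alone, in which stem cells divide in crypt-like buds and give rise to absorptive enterocytes and to secretory Paneth, goblet, enteroendocrine and tuft cells. In the mouse, the epithelium around birth takes up milk proteins whole and digests them in lysosomes, carries lactase, and has no mature Paneth cells. Around weaning it changes to sucrase, trehalase and the defence genes of the adult. Fetal cells of many organs also express imprinted growth genes and oncofetal genes, which are silenced after birth.

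Values are log2 signals as the authors deposited them, and a difference is the mean of adult arrays minus the mean of fetal arrays, so that 1 is a 2-fold difference and a positive value is higher in adult organoids. It is called the origin difference below. It is given with its SE from limma's model of all 24 arrays, and a gene was called when its Benjamini-Hochberg adjusted p over all genes was under 0.05. Single arrays are listed in the order of replicates 1 to 4, and the labels do not say that these numbers pair adult with fetal arrays.

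Array medians ran from 4.26 to 4.32 in adult and from 4.23 to 4.35 in fetal organoids, but normalization between arrays makes medians alike. Negative control medians ran from 4.08 to 4.22 in adult and from 4.15 to 4.38 in fetal organoids. The chance that a positive control probe set exceeded a negative one was 0.891 to 0.912 in adult and 0.88 to 0.9035 in fetal organoids. By both measures fetal replicate 1 had the weakest signal over background. Correlations between arrays over all genes ran from 0.988 to 0.996 within the groups and from 0.982 to 0.992 between them. The 11 epithelial markers marked both groups as gut epithelium, with Epcam, an adhesion protein of epithelia, at 9.83 ± 0.09 in adult and 9.67 ± 0.10 in fetal organoids and Cdx2, which sets intestinal identity, at 8.90 ± 0.04 in adult and 9.0 ± 0.08 in fetal organoids (SD, n = 4 each). Of the 15 genes of mesenchyme and smooth muscle, 0 were called in either direction, their summed level was 9.0 to 9.18 in adult and 9.02 to 9.21 in fetal organoids, and Dcn, Lum, Ogn and Postn lay below the negative control probe sets in both. Of the 18 leukocyte genes 0 were called as well (summed level 9.99 to 10.51 in adult and 9.46 to 10.25 in fetal organoids), and Ptprc, which marks all leukocytes, lay below the controls in both groups. Xist, the RNA of the inactive X chromosome, was at 10.96 to 11.58 in adult and 10.76 to 11.29 in fetal organoids. The Y-linked gene Uty was at 3.54 to 3.64 in adult organoids, below the controls, and at 4.76 to 5.25 on all 4 fetal arrays. Kdm5d and Eif2s3y, also on the Y, showed the same split without overlap. Uty was at least 1.89-fold lower in adult organoids (adjusted p = 0.061), Kdm5d at least 1.77-fold (adjusted p = 0.058) and Eif2s3y at least 1.37-fold (adjusted p = 0.081). The limma fit of all groups did not call them, whereas a limma fit of the day 30 arrays alone called Uty, Kdm5d and Eif2s3y, with adjusted p between 0.0016 and 0.0032. The fetal arrays thus carried Y-linked signal and Xist together, the adult arrays Xist with Uty below the controls, and the labels give neither the sex of the mice nor whether samples pooled several. The sex of the source and its age cannot be told apart in these data. At day 3, fetal arrays 2 and 3 stood apart by stomach genes, and some day 3 counts are also given without them. Of the 13 stomach genes 0 were called at day 30, with a summed level of 8.92 to 9.86 in adult and 8.76 to 12.71 in fetal organoids, highest on fetal replicate 3.

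Few genes still differed by much. Limma called 2754 genes at day 30, or 8.97% of all genes tested, of which 2088 were higher (6.8% of all) and 666 lower (2.17%) in adult organoids. Of these, 2639 differed by less than 2-fold, the median difference being 0.50 for the higher and -0.43 for the lower calls. Only 115 genes (0.375%) were called with at least a 2-fold difference, 75 of them higher (0.244%) and 40 lower (0.13%). The arrays of the 2 groups did not overlap in 3777 genes (12.3%), among them 2165 of the 2754 called and 99 of the 115 called at 2-fold. The lean towards higher calls depended on the scaling: 75.8% of the calls were higher as deposited, 70.4% (1627 higher and 685 lower) with each array centred on its median, and 52.3% (1365 higher and 1246 lower) after a second quantile normalization. With the spread taken from the day 30 arrays alone, 1228 genes were higher and 386 lower. Without adult replicate 1 the lower calls numbered 369 and without fetal replicate 3 they numbered 417.

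At day 3 the same contrast had given 7541 calls (24.6% of all genes), 1023 of them at least 2-fold (3.33%), with 538 higher (1.75%) and 485 lower (1.58%). Without the fetal day 3 arrays 2 and 3 there were 5262 calls at day 3. The 538 genes that were at least 2-fold higher in adult organoids at day 3 had a median difference of 1.25 then and 0.59 at day 30, and 224 of them were still called higher. The 485 genes that were at least 2-fold lower at day 3 had a median of -1.44 then and -0.20 at day 30, and 67 were still called lower. Part of this fall in size comes with the choice of genes by their day 3 values. The test of the change of the origin difference itself called 917 genes (2.99%), 605 of them towards higher in adult organoids (1.97%) and 312 towards lower (1.02%), and 392 by at least 2-fold (1.28%). The difference was smaller in size at day 30 in 857 of them and larger in 60. With the day 3 arrays 2 and 3 of fetal organoids left out, 563 changes were called. Read the other way, most of the genes that still differed had been called at day 3 too. Of the 2088 genes higher at day 30, 1634 (78.3%) were also called higher at day 3, where 14.5% of all genes were. Of the 666 lower ones, 394 (59.2%) were also called lower at day 3, where 10.1% of all genes were. Of the 115 genes with at least a 2-fold difference, 102 (88.7%) had been called in the same direction at day 3, and 0 in the opposite one. These shares rest on 2 comparisons that have no array in common.

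**Figure D1:**
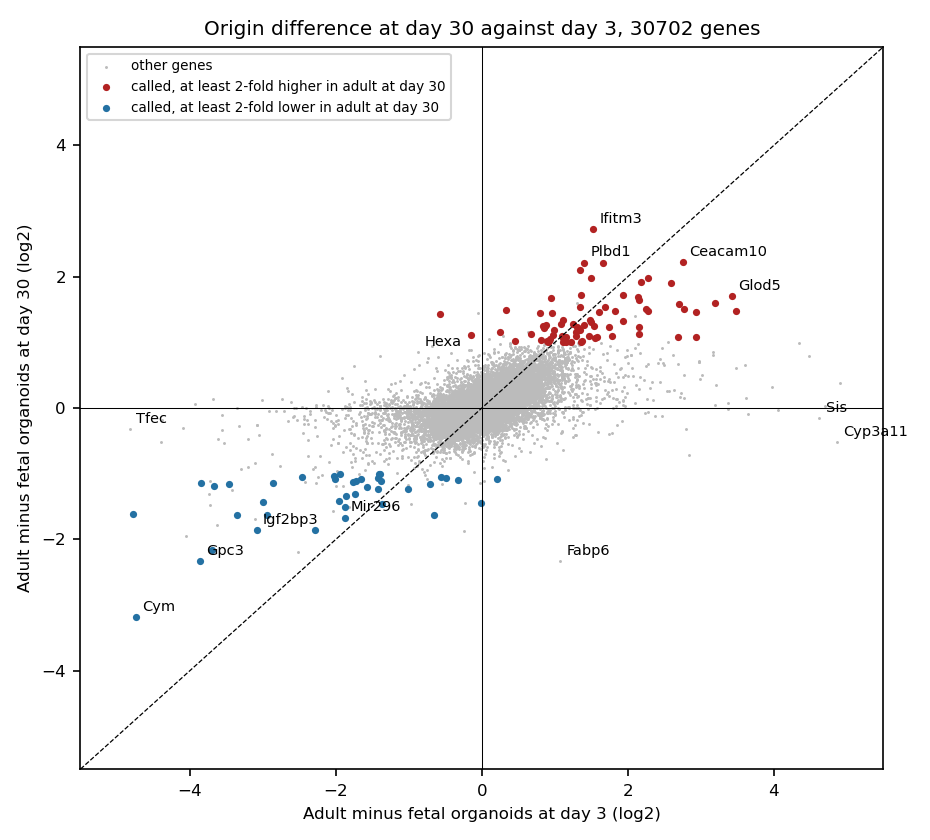
Origin difference (adult minus fetal organoids, log2) of 30702 genes at day 30 (vertical axis) against day 3 (horizontal axis), each point 1 gene. Red and blue points are the 75 genes called at least 2-fold higher and the 40 called at least 2-fold lower in adult organoids at day 30. The dashed line marks equal differences: Sis and Cyp3a11, far to the right, lie near 0 at day 30, while Gpc3 and Cym stay far below 0 on both days.

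Among the genes that stayed higher in adult organoids, Ifitm3 had the largest rise of the genes named here. It encodes a membrane protein, induced by interferon, that hinders the entry of viruses into cells. Ifitm3 was at 9.45, 8.14, 9.25 and 8.18 on the adult arrays and at 6.34, 5.96, 5.46 and 6.37 on the fetal arrays, a difference of 2.72 ± 0.28 (SE, adjusted p = 7.1e-06). Every adult array lay above every fetal array by more than 1 log2 unit. Plbd1, a lysosomal phospholipase B, was at 9.30, 9.39, 8.76 and 9.59 in adult organoids and at 6.89, 7.93, 6.69 and 6.66 in fetal ones (2.22 ± 0.25, adjusted p = 1.4e-05). Fetal replicate 2 stood above the other fetal arrays and still below all adult arrays. Ceacam10, a secreted member of the carcinoembryonic antigen family, was at 8.23, 8.46, 7.84 and 9.59 in adult and at 6.36, 6.40, 6.62 and 5.86 in fetal organoids (2.22 ± 0.38, adjusted p = 0.0006). Here adult replicate 4 was highest and fetal replicate 4 lowest.

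Several others of the largest rises encode secreted proteins or enzymes. Rnase1, a secreted ribonuclease, was at 8.01, 8.22, 7.86 and 8.48 in adult and at 6.21, 6.10, 6.57 and 5.77 in fetal organoids (1.98 ± 0.21, adjusted p = 7.9e-06). Sycn, which encodes syncollin, a protein of secretory granules, was at 7.24 to 8.61 in adult and at 5.26 to 6.03 in fetal organoids (1.98 ± 0.43, adjusted p = 0.0046). Glod5, a gene of the glyoxalase-domain family, was at 7.29 to 8.32 in adult and at 5.35 to 6.53 in fetal organoids (1.71 ± 0.24, adjusted p = 0.00012). None of these 3 overlapped between the groups, but the largest rises and falls were named only among called genes without overlap. The lack of overlap in such genes is thus no separate result. The secretoglobin gene Scgb2b20 (1.71 ± 0.19, adjusted p = 1.3e-05), Oit1 (2.10 ± 0.21, adjusted p = 6.6e-06), Syna, an envelope-derived gene that encodes the cell fusion protein syncytin-A (1.58 ± 0.22, adjusted p = 0.0001), and Sema7a, a membrane-anchored semaphorin (1.54 ± 0.29, adjusted p = 0.0015), were also higher in adult organoids. Agr3, a relative of the goblet cell disulfide isomerase Agr2, was at 4.20 to 5.40 in adult organoids, while its fetal mean of 3.18 lay below the negative controls. It is therefore at least 1.56-fold higher in adult organoids (adjusted p = 0.00018). The carboxylesterase genes Ces1d (1.51 ± 0.25, adjusted p = 0.00045) and Ces1g (1.51 ± 0.35, adjusted p = 0.008) and Pnliprp2, a lipase related to that of the pancreas (1.5 ± 0.31, adjusted p = 0.0033), were higher as well, but Pnliprp2 was not called by the fit of the day 30 arrays alone (adjusted p = 0.052). Ces1d and Ces1g belong to a cluster of near-identical genes whose probes may share signal.

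Cox7a1 and Casp1 complete this group with high levels. Cox7a1, the muscle and heart form of a cytochrome c oxidase subunit, was at 10.60, 9.42, 11.22 and 9.65 in adult organoids and at 7.98, 10.23, 7.58 and 8.53 in fetal ones. Fetal replicate 2 lay above 2 of the adult arrays, so that the groups overlapped (1.64 ± 0.40, adjusted p = 0.011). The call ended without fetal replicate 3 (1.31, adjusted p = 0.052) and in the fit of the day 30 arrays alone (adjusted p = 0.17). Casp1, which encodes the protease caspase-1 of the inflammasome, was at 10.40 to 10.63 in adult and at 8.30 to 9.35 in fetal organoids (1.47 ± 0.20, adjusted p = 0.00011). It was named after its values were seen.

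Genes that stayed lower in adult organoids were led by Cym, which encodes chymosin, the milk-clotting protease of the suckling stomach. Cym was at 5.74, 5.31, 6.38 and 5.22 in adult organoids and at 9.25, 9.82, 9.76 and 6.54 in fetal ones, a difference of -3.18 ± 0.85 (adjusted p = 0.019). Fetal replicate 4 was only just above the highest adult array. The summed level of the stomach genes, 8.92 to 9.86 in adult and 8.76 to 12.71 in fetal organoids, was highest on fetal replicate 3, and its part in the difference of Cym was not tested. The call of Cym ended without adult replicate 4 or fetal replicate 1, 2 or 3 (-3.04 to -2.85, adjusted p between 0.052 and 0.069). Ctrb1, a chymotrypsinogen of the pancreas, was at 8.57, 7.95, 9.56 and 7.92 in adult and at 10.27, 11.62, 9.82 and 9.72 in fetal organoids (-1.86 ± 0.57, adjusted p = 0.04), and its call ended without adult replicate 1, 2 or 4 or fetal replicate 1 or 2 (-1.89 to -1.44, adjusted p between 0.073 and 0.16). Of the 12 pancreatic acinar genes, Clps, the lipase cofactor colipase, was called in the other direction (0.66 ± 0.21, adjusted p = 0.045; not called without any 1 of adult replicates 1, 3 and 4 and fetal replicates 1, 2 and 4, at 0.47 to 0.69, adjusted p between 0.071 and 0.16). Cpb1, Cel, Prss2, Try4 and Ptf1a of that list lay below the controls in both groups.

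Cubn encodes cubilin, the receptor that takes up proteins and vitamin B12 bound to intrinsic factor. Cubn was at 3.58, 4.46, 3.52 and 5.07 in adult organoids and at 5.61, 6.75, 6.17 and 6.75 in fetal ones (-2.16 ± 0.28, adjusted p = 6.1e-05). Adult replicates 2 and 4 were higher than the other adult arrays, and none reached a fetal array. Adult replicates 1 and 3 lay under the negative control medians of their arrays (4.08 and 4.09), so that the size of the difference is not exact. The nucleoside transporter gene Slc28a2 was at 5.76 to 7.02 in adult and at 7.42 to 8.82 in fetal organoids (-1.63 ± 0.29, adjusted p = 0.0009), and its close relative Slc28a2b, whose probes may share its signal, differed by -1.43 ± 0.25 (adjusted p = 0.00071). Slc34a2, a phosphate transporter, was at 6.12 to 7.96 in adult and at 8.02 to 9.46 in fetal organoids (-1.63 ± 0.43, adjusted p = 0.018). Its call ended without adult replicate 1 or fetal replicate 2 (-1.26 and -1.42, adjusted p between 0.071 and 0.09) and in the fit of the day 30 arrays alone (adjusted p = 0.062). Hif3a, a hypoxia-inducible factor subunit, was at 5.46 to 6.27 in adult and at 6.87 to 7.66 in fetal organoids (-1.31 ± 0.23, adjusted p = 0.00095). Chst11, a chondroitin sulfotransferase (-1.23 ± 0.18, adjusted p = 0.00015), Serinc5, a membrane protein that lowers the infectivity of retroviruses (-1.24 ± 0.26, adjusted p = 0.0038), Nid1, the basement membrane protein nidogen (-1.18 ± 0.25, adjusted p = 0.0041), and Kif12, a kinesin (-1.15 ± 0.19, adjusted p = 0.00055), fell as well. Inha, an inhibin subunit, was at 5.27 to 5.53 in adult organoids and at 7.27, 5.92, 7.47 and 5.99 in fetal ones, where replicates 1 and 3 stood above 2 and 4 (-1.21 ± 0.24, adjusted p = 0.002; adjusted p = 0.085 in the fit of the day 30 arrays alone). Cyp2w1, a cytochrome P450 known from fetal gut and colon tumours, was at 6.70, 7.80, 6.13 and 8.19 in adult and at 9.16, 8.41, 9.31 and 7.96 in fetal organoids. The groups overlapped by 1 array on each side (-1.51 ± 0.35, adjusted p = 0.0081; adjusted p = 0.11 in the fit of the day 30 arrays alone).

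**Figure D2:**
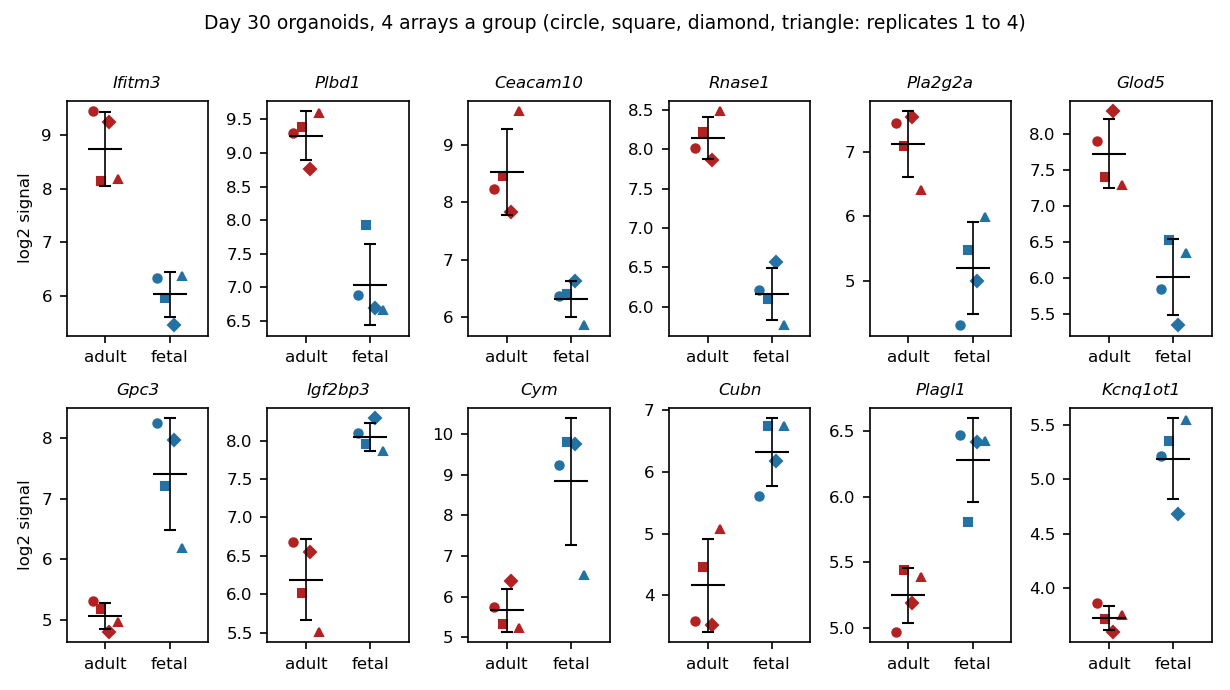
Log2 signal of 12 genes on the 4 adult (red, left) and 4 fetal (blue, right) arrays of day 30. Symbols stand for replicates 1 to 4, the black bar is the mean and the whiskers are the SD. In the upper row all adult arrays lie above all fetal arrays, as for Ifitm3 with 8.14 to 9.45 in adult and 5.46 to 6.37 in fetal organoids, and in the lower row all lie below.

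Oncofetal genes kept part of their difference. Of 8 measured members, 3 were lower in adult organoids and 0 higher at day 30, beside 2.17% and 6.8% of all genes. At day 3, 5 had been lower, beside 10.1% of all genes. The median of the list was -0.11 at day 30 and -0.74 at day 3, beside 0.016 and -0.006 over all genes. Gpc3, a membrane-bound proteoglycan of fetal tissues, was at 5.31, 5.18, 4.81 and 4.97 in adult organoids and at 8.25, 7.21, 7.96 and 6.19 in fetal ones (-2.33 ± 0.27, adjusted p = 2.1e-05). Its adult mean at day 30 was close to that of whole adult intestine, 5.07 ± 0.27 (SD, n = 4). The fetal arrays lay between 6.19 and 8.25, below the 9.54 ± 0.10 of whole P0 intestine (SD, n = 4). Whole intestine also holds cells other than epithelium, so these levels are not of the same cells. Igf2bp3, an RNA-binding protein of fetal cells and tumours, was at 6.68, 6.02, 6.55 and 5.51 in adult and at 8.10, 7.95, 8.29 and 7.87 in fetal organoids (-1.86 ± 0.19, adjusted p = 6.9e-06). The fetal arrays stayed close to each other, and none reached the adult range. At day 3 its adult mean had been 5.13 ± 0.34 and its fetal mean 8.22 ± 0.20 (SD, n = 4 each), and the change of the difference was called (1.22, adjusted p = 0.011), though not without fetal day 3 arrays 2 and 3. Arid3a, a DNA-binding factor of fetal cells, was at 6.18 to 6.36 in adult and at 6.78 to 6.97 in fetal organoids (-0.62 ± 0.09, adjusted p = 0.00013). Lin28b and Sox11 of the list lay below the controls in both groups.

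Imprinted genes, which are active from only 1 parental copy, were mostly no longer called. Of 15 measured members, 3 were lower and 0 higher in adult organoids at day 30, beside 2.17% and 6.8% of all genes. At day 3 there had been 13 lower, beside 10.1% of all genes, or 11 without fetal arrays 2 and 3. The median of the list was -0.11 at day 30 and -1.16 at day 3. The change between the days was called for 9 of the 15, and Mest, Zim1, Ndn and Slc38a4 lay below the controls in both groups at day 30. Igf2, the fetal growth factor, was at 5.56 ± 0.08 in adult and 5.79 ± 0.20 in fetal organoids at day 30 (SD, n = 4 each), a difference of -0.23 ± 0.13 that was not called (adjusted p = 0.33), after -1.72 at day 3 (adjusted p = 2.1e-09). Grb10, an inhibitor of growth factor signalling, likewise differed by -0.29 ± 0.13 (adjusted p = 0.21) after -2.28 at day 3. Igf2 and Grb10 were named after their values were seen. The 3 that still differed were Plagl1, a zinc finger regulator of other imprinted genes, Igf2r, the receptor that clears Igf2, and Peg3. Plagl1 was at 4.97, 5.44, 5.19 and 5.39 in adult organoids and at 6.47, 5.81, 6.42 and 6.43 in fetal ones (-1.04 ± 0.14, adjusted p = 8.9e-05). Igf2r was at 6.89 to 7.23 in adult and at 7.38 to 7.78 in fetal organoids (-0.50 ± 0.10, adjusted p = 0.0018). Peg3 was at 4.84 to 5.5 in adult organoids and at 6.34, 5.53, 6.95 and 5.55 in fetal ones, so that fetal replicates 2 and 4 lay just above the adult range (-0.89 ± 0.23, adjusted p = 0.018). Its call ended without adult replicate 1 or 3 or fetal replicate 1 or 3 (-0.86 to -0.60, adjusted p between 0.052 and 0.078). The fit of the day 30 arrays alone did not call Peg3 either (adjusted p = 0.15). Outside the list, Kcnq1ot1, the long RNA that silences an imprinted cluster from the paternal copy, had an adult mean of 3.73 below the negative controls and lay at 5.21, 5.35, 4.68 and 5.54 in fetal organoids. It was at least 2.08-fold lower in adult organoids (adjusted p = 1.3e-05), and the change from day 3 was near 0 (-0.09, adjusted p = 0.93).

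Genes of mature enterocytes, the list with the largest median difference at day 3, were no longer called. Of the 11 measured genes of adult enterocytes, 0 were called at day 30, with differences from -0.92 to 0.79 and a median of 0.08. At day 3, 9 had been higher and 1 lower, with a median of 2.99. Of all genes, 6.8% were higher and 2.17% lower at day 30, and 14.5% and 10.1% at day 3. The change between the days was called for 9 of them. Sis, the sucrase and isomaltase of the brush border, was at 10.98, 11.38, 11.36 and 11.46 in adult organoids and at 11.43, 11.53, 11.24 and 11.62 in fetal ones. The groups overlapped throughout, and the difference of -0.16 ± 0.33 (adjusted p = 0.9) stood against 4.63 at day 3, a called change of -4.78 (adjusted p = 1.8e-06). The same held for Treh, which encodes trehalase (0.08 ± 0.30, adjusted p = 0.95), and for Cyp3a11, a drug-oxidising enzyme (-0.52 ± 0.32, adjusted p = 0.42). Cyp3a25 (0.03), Cyp4f14 (-0.10) and the antimicrobial lectin gene Reg3a (0.38), which were among the larger called changes between the days, were not called at day 30 either, with adjusted p between 0.61 and 0.99. Arg2, which encodes arginase 2, kept the largest positive difference of the list, with 8.45, 8.87, 8.70 and 7.90 in adult and 7.48, 7.96, 6.74 and 8.56 in fetal organoids (0.79 ± 0.34, adjusted p = 0.17), and passed the test only without fetal replicate 4 (1.08, adjusted p = 0.041).

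Suckling enterocyte genes other than Cubn were not called either. Of 11 measured members, 1 was lower at day 30 and 0 higher, beside 2.17% and 6.8% of all genes. At day 3, 8 had been lower, beside 10.1% of all genes. The median was -0.33 at day 30 after -1.29 at day 3. The change was called for 5. Nox4, Lrp2 and Tfec of this list lay below the negative controls in both groups at day 30. Dab2, the adaptor that carries receptors such as cubilin into the cell, was at 4.38 ± 0.41 in adult and 4.49 ± 0.42 in fetal organoids (SD, n = 4 each) and was not called (-0.11, adjusted p = 0.88), after -2.58 at day 3. Lct, which encodes lactase, was at 6.15, 7.66, 7.87 and 7.40 in adult and at 8.40, 9.22, 8.26 and 7.55 in fetal organoids. Its difference of -1.08 ± 0.39 was not called (adjusted p = 0.089), but was without fetal replicate 4 (-1.35, adjusted p = 0.033). It was also called with array weights, where that array weighed 0.59 (-1.29, adjusted p = 0.039). The difference was weaker without adult replicate 1 (-0.71, adjusted p = 0.34) or fetal replicate 2 (-0.8, adjusted p = 0.29). In the fit of the day 30 arrays alone the adjusted p of Lct was 0.2. Prdm1, the gene of Blimp-1, a repressor of the adult program, was at 4.73 to 5.11 in adult organoids and at 6.15, 5.52, 6.11 and 4.74 in fetal ones, with fetal replicate 4 at the adult level (-0.70 ± 0.24, adjusted p = 0.074). It was called without that array (-1.0, adjusted p = 0.0028), with array weights (-0.76, adjusted p = 0.033) and with a filter on dim genes (adjusted p = 0.048). Prdm1 was weaker without fetal replicate 1 (-0.53, adjusted p = 0.25) or 3 (-0.54, adjusted p = 0.25). The fit of the day 30 arrays alone gave it an adjusted p of 0.22. Fcgrt, the receptor that carries antibodies of milk across the gut wall, was not called at day 30 (0.14, adjusted p = 0.87), after -1.29 at day 3 (adjusted p = 0.00074). Outside the list, Mamdc4, which encodes the endosomal protein endotubin of the suckling gut, kept a difference without overlap, with 5.69 to 5.91 in adult and 6.25 to 7.44 in fetal organoids (-1.15 ± 0.19, adjusted p = 0.00054), after -3.85 at day 3. Folr1, a folate receptor, was at 4.36 to 5.03 in adult and at 6.66, 5.80, 6.25 and 4.45 in fetal organoids (-1.16 ± 0.29, adjusted p = 0.014), and its call ended without adult replicate 1 or fetal replicate 1 or 3 (-1.07 to -0.87, adjusted p between 0.052 and 0.065). Folr1 was also not called in the fit of the day 30 arrays alone (adjusted p = 0.17). Dab2, Mamdc4 and Folr1 were named after their values were seen.

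Lysosomal genes no longer leaned lower. Of 17 measured members, 13 had been lower and 1 higher in adult organoids at day 3, beside 10.1% and 14.5% of all genes. At day 30 there were 3 higher and 0 lower, beside 6.8% and 2.17% of all genes, the median being 0.03 after -0.63. The 3 were Plbd1, described above, Hexa and Lamp2. Hexa, a subunit of the hexosaminidase that degrades gangliosides, was at 8.83, 8.65, 8.52 and 8.65 in adult and at 7.94, 7.80, 8.19 and 7.30 in fetal organoids (0.85 ± 0.15, adjusted p = 0.00095), after -0.87 at day 3 (adjusted p = 0.00019). Lamp2, a protein of the lysosomal membrane, differed by 0.25 ± 0.08 (adjusted p = 0.049), and its call ended without any 1 of adult replicates 1, 3 and 4 and fetal replicates 1, 2 and 4 (0.20 to 0.26, adjusted p between 0.076 and 0.15) and in 6 other settings. After a second quantile normalization 2 of the 17 genes were higher and 3 lower, so that no direction is read from the list as a whole.

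**Figure D3:**
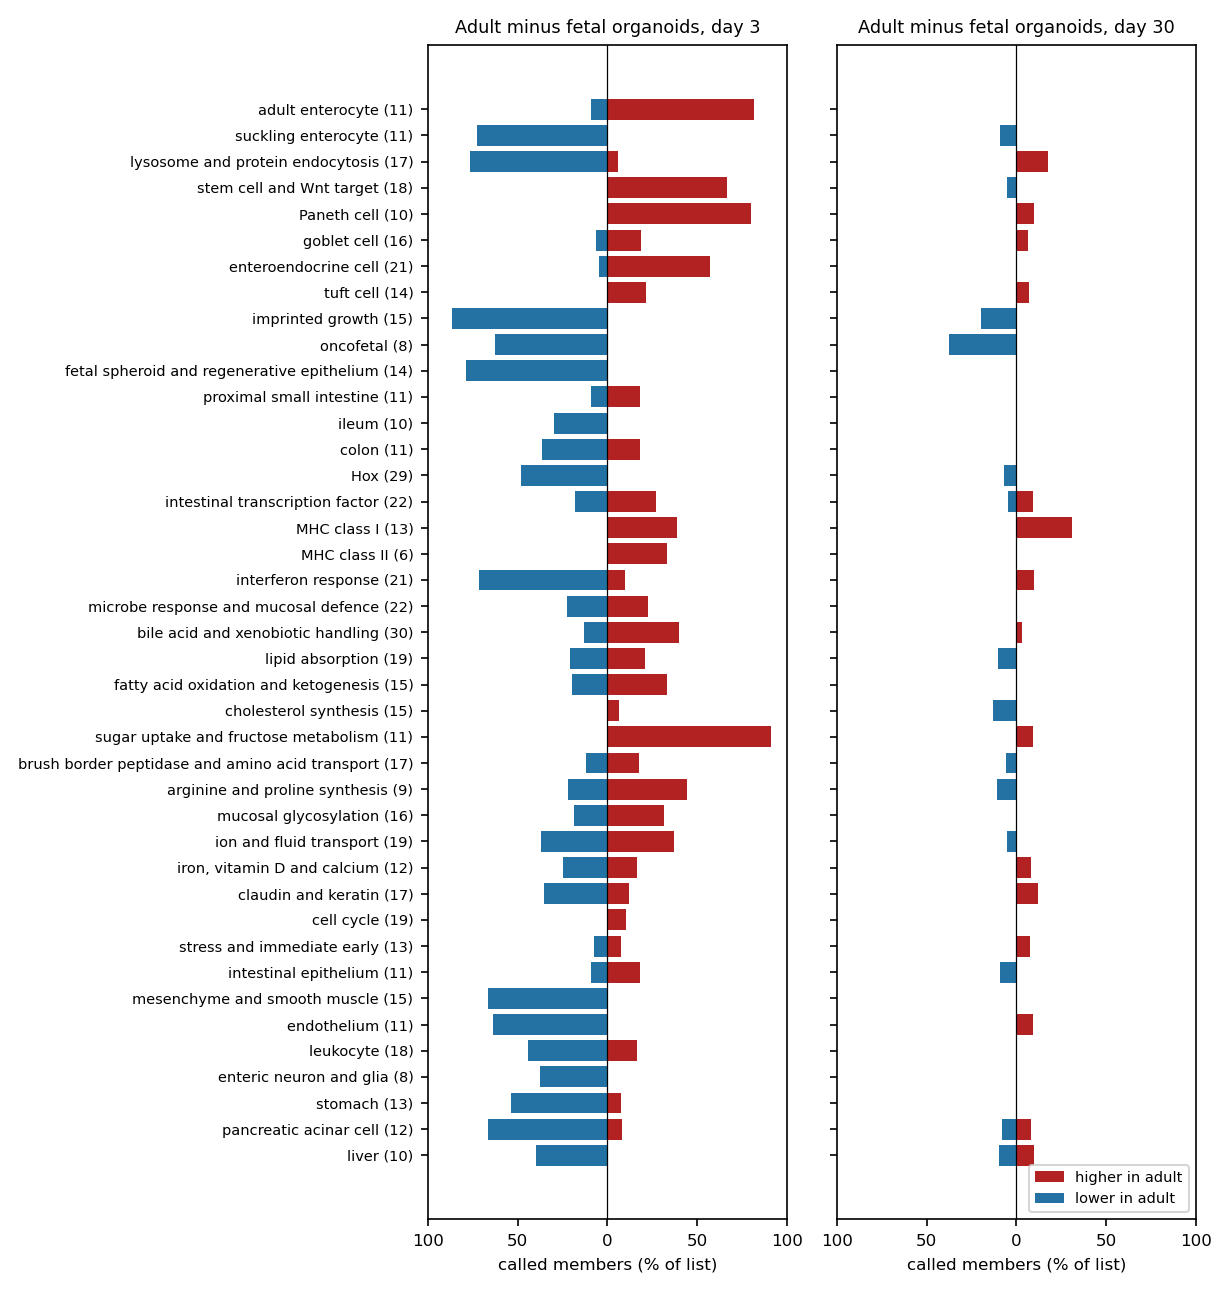
Share of the measured members of the gene lists that were called higher (red, to the right) or lower (blue, to the left) in adult than in fetal organoids at day 3 (left panel) and day 30 (right panel), with the number of measured members in brackets. Lists with no called member on either day and the sex-linked list are left out. At day 3 the imprinted list had 13 of 15 members lower, and at day 30 it had 3.

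Stem cells and secretory cell types showed few differences. Of the 18 stem cell and Wnt target genes, 0 were higher and 1 lower at day 30, beside 6.8% and 2.17% of all genes. At day 3, 12 had been higher, beside 14.5% of all genes. The median was 0.09 at day 30 after 0.73 at day 3. Lgr5, which marks crypt stem cells, was at 8.67, 8.71, 8.47 and 8.91 in adult and at 7.73, 8.63, 8.02 and 8.23 in fetal organoids, with only fetal replicate 2 inside the adult range (0.54 ± 0.39, adjusted p = 0.54). The called gene was Tnfrsf19, a Wnt target also known as Troy (-0.33 ± 0.09, adjusted p = 0.024). It was not called without any 1 of adult replicates 1, 3 and 4 and fetal replicates 2, 3 and 4 (-0.34 to -0.25, adjusted p between 0.052 and 0.085), or with the mean of its clusters (adjusted p = 0.19). Of the 19 cell cycle genes 0 were called, and Mki67, a gene of dividing cells, was at 10.31 ± 0.14 in adult and 10.33 ± 0.36 in fetal organoids (SD, n = 4 each; -0.02 ± 0.21, adjusted p = 0.98).

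Paneth cell genes are those of the antimicrobial cell at the crypt base. Of 10 measured members, 1 was higher in adult organoids at day 30 and 0 lower, beside 6.8% and 2.17% of all genes. At day 3, 8 had been higher. All 10 differences at day 30 were positive, from 0.09 to 1.92, but so were those of the tuft cell list below. Pla2g2a, a secreted phospholipase that kills bacteria, was at 7.45, 7.09, 7.54 and 6.41 in adult and at 4.32, 5.48, 5.0 and 5.99 in fetal organoids (1.92 ± 0.39, adjusted p = 0.0026). The fetal arrays spread widely, replicate 4 being highest, and none reached the adult arrays. Lyz1, Paneth cell lysozyme, was at 11.07, 10.69, 11.42 and 11.15 in adult and at 9.60, 10.52, 10.47 and 11 in fetal organoids (0.68 ± 0.32, adjusted p = 0.23), after 2.48 at day 3. Mmp7, the protease that activates defensins, was at 10.53 ± 0.25 in adult and 10.05 ± 0.34 in fetal organoids (SD, n = 4 each; 0.48 ± 0.36, adjusted p = 0.55). The defensin genes are near-identical copies whose signals cannot be told apart, so the members of the list are not independent.

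Of 16 goblet cell genes, Klk1, a kallikrein protease, was called higher (0.92 ± 0.29, adjusted p = 0.047) and 0 lower, beside 6.8% and 2.17% of all genes. The call ended in 7 of the 8 fits that left out 1 array, all but the one without fetal replicate 3 (0.62 to 0.99, adjusted p between 0.062 and 0.16). Klk1 was also not called in the fit of the day 30 arrays alone (adjusted p = 0.15). Of 14 tuft cell genes, Rgs13, a G-protein regulator, was higher (1.90 ± 0.44, adjusted p = 0.0076) and 0 lower, beside the same shares of all genes. All 14 differences were positive, from 0.05 to 1.90, with a median of 0.28 against 0.23 in the Paneth list. Rgs13 was at 6.57, 7.82, 5.85 and 7.94 in adult organoids and at 6.36, 4.07, 6.0 and 4.14 in fetal ones, so that the groups overlapped, and the fit of the day 30 arrays alone did not call it (adjusted p = 0.14). Of 21 enteroendocrine genes 0 were called, after 12 higher and 1 lower at day 3 (6 and 2 without fetal arrays 2 and 3). Chga, which encodes chromogranin A of hormone granules, was at 7.61, 8.36, 7.43 and 8.37 in adult and at 8.22, 7.04, 8.13 and 7.16 in fetal organoids (0.30 ± 0.31, adjusted p = 0.71). In Chga and Rgs13 alike, adult replicates 2 and 4 and fetal replicates 1 and 3 were the high arrays of their groups.

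The same division of the fetal arrays ran through 2 ileal bile acid genes, with the order turned. Fabp6, the bile acid carrier of ileal enterocytes, was at 4.56, 4.41, 4.80 and 4.92 in adult organoids and at 4.84, 8.98, 4.66 and 9.54 in fetal ones. Fetal replicates 2 and 4 stood 4 log2 units above all other day 30 arrays, and the difference of -2.33 ± 1.11 was not called (adjusted p = 0.24). Slc10a2, the ileal bile acid transporter, was at 3.26, 5.08, 3.83 and 6.80 in fetal organoids, again highest in replicates 2 and 4, while its adult mean of 3.61 lay below the negative controls. Both genes were named after their values were seen. Of the 10 ileal genes 0 were called, and likewise 0 of 11 genes of proximal small intestine and 0 of 11 of colon. The arrays of a group were thus not alike in these genes, and the part that the stretch of gut or the cell makeup of a culture played was not tested. In cultures measured as a whole, fewer cells of a type and less RNA per cell cannot be told apart.

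**Figure D4:**
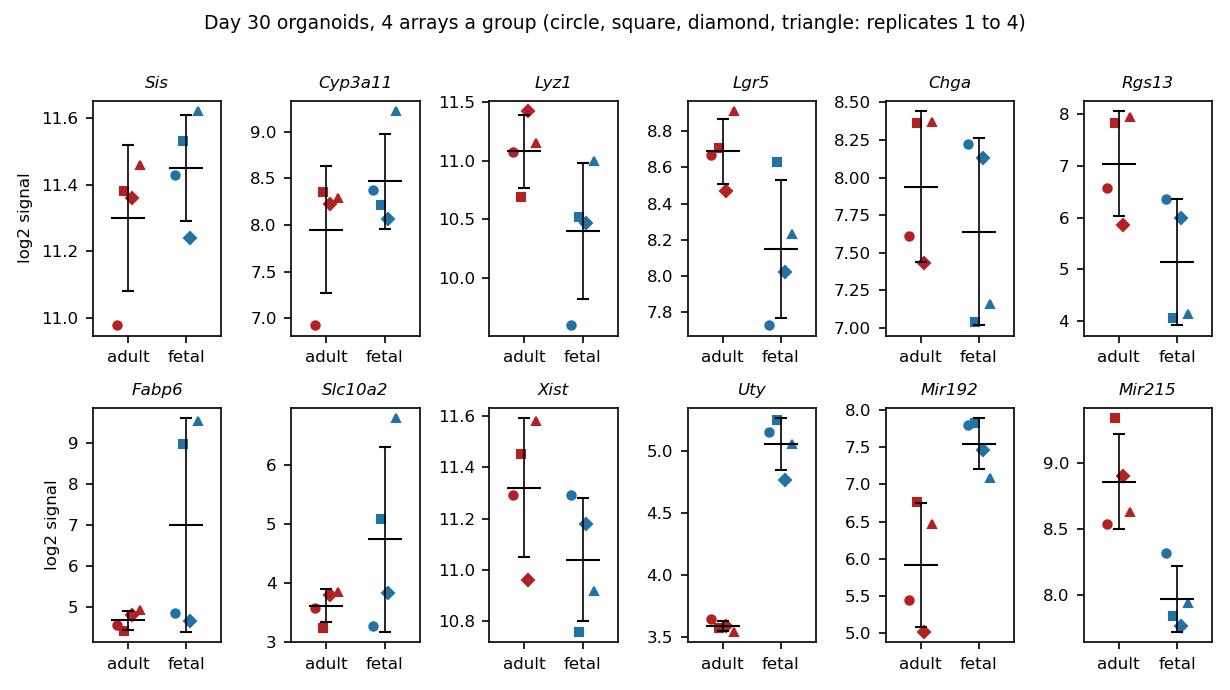
Log2 signal of 12 genes on the 4 adult (red, left) and 4 fetal (blue, right) arrays of day 30, with symbols for replicates 1 to 4, the mean (bar) and the SD (whiskers). Sis and Cyp3a11 overlap between the groups, Fabp6 is at 8.98 and 9.54 on fetal replicates 2 and 4 against 4.41 to 4.92 in adult organoids, and Uty is at 4.76 to 5.25 on all fetal arrays.

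Some MHC class I genes were higher in adult organoids at day 30. These genes present peptides of the cell's own proteins to T cells. Of 13 measured members, 4 were higher at day 30 and 0 lower, beside 6.8% and 2.17% of all genes. At day 3, 5 had been higher (4 without fetal arrays 2 and 3), beside 14.5% of all genes. The median difference was 0.20 at day 30. B2m, the light chain of all class I molecules, was at 10.82, 10.58, 11 and 10.89 in adult and at 10.09, 10.24, 10.10 and 10.42 in fetal organoids (0.61 ± 0.11, adjusted p = 0.0013). Psmb9, a subunit of the immunoproteasome that cuts these peptides, was at 5.75 to 6.25 in adult and at 5.03 to 5.48 in fetal organoids (0.64 ± 0.13, adjusted p = 0.002). Psmb10, another such subunit, was higher too (0.43 ± 0.11, adjusted p = 0.013), but not without fetal replicate 3 (0.30, adjusted p = 0.059) or after a second quantile normalization (adjusted p = 0.056). The fit of the day 30 arrays alone did not call Psmb10 either (adjusted p = 0.11). H2-Q4, a non-classical heavy chain whose probes may share signal with its relatives, differed by 0.38 ± 0.07 (adjusted p = 0.0022), and was not called at day 3 (0.13, adjusted p = 0.24). The differences of B2m and Psmb9 at day 3, 0.59 and 0.63, were nearly the same as at day 30. Of 6 class II genes 0 were called.

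Interferon response genes gave a mixed picture. Of 21 measured members, 2 were higher at day 30 and 0 lower, beside 6.8% and 2.17% of all genes. At day 3 there had been 2 higher and 15 lower, beside 14.5% and 10.1% of all genes. At day 30, 7 members, among them Ifit1, Mx1 and Oas2, lay below the negative controls in both groups. The 2 called at day 30 were Ifitm3 and Bst2, which encodes tetherin, a protein that holds budding viruses at the cell surface. Bst2 was at 8.55, 8.11, 8.01 and 8.05 in adult and at 7.37, 7.48, 7.85 and 6.87 in fetal organoids (0.79 ± 0.21, adjusted p = 0.018), after -1.40 at day 3. Its call at day 30 ended without adult replicate 1 or fetal replicate 4 (0.66 and 0.61, adjusted p between 0.066 and 0.081) and after a second quantile normalization (adjusted p = 0.051). Bst2 was also not called in the fit of the day 30 arrays alone (adjusted p = 0.061).

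Promoters of the 6 called members of the MHC class I and interferon lists were searched, on both strands, for GAAA followed by any 2 bases and GAAA again, the core of the element through which interferon regulatory factors act. The 250 bases before the RefSeq start of each gene were read on GRCm38.p6. A match was found in 2 of the 6, B2m and Bst2, and in 2.98% of the 32851 mouse promoters searched (978). Uncalled members of the same lists were not counted apart, so no link of the motif to the origin difference is read from this. B2m lies on the plus strand at chr2:122147437-122147686 and Bst2 on the minus strand at chr8:71537473-71537722, and the capitals mark the matches, which in Bst2 are 2 that overlap. Both are shown because these genes differ by origin at day 30 and hold the motif:
B2m: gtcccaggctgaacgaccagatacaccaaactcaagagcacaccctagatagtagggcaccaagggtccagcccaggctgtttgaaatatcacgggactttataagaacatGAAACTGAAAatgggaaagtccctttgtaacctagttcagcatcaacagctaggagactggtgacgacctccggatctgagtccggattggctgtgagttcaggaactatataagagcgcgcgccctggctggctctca
Bst2: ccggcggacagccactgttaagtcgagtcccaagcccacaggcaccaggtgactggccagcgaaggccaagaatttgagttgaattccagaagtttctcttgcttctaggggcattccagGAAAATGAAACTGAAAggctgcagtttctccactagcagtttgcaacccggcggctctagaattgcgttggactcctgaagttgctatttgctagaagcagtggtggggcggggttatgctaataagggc
The windows of Ifitm3, Psmb9, Psmb10 and H2-Q4 do not hold these letters.

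A few differences were larger at day 30 than at day 3. Of the 917 genes with a called change, 50 were called at day 30 with a difference larger in size than at day 3, 41 of them higher and 9 lower in adult organoids. Named after their values were seen, these included genes of lysosomes and of the response to viral RNA. Smpdl3a, a lysosomal phosphodiesterase, was at 8.75, 8.58, 8.29 and 8.45 in adult organoids and at 7.63, 6.96, 7.72 and 5.99 in fetal ones at day 30 (1.44 ± 0.24, adjusted p = 0.00046). At day 3 its adult mean was 8.32 ± 0.21 and its fetal mean 8.89 ± 0.14 (SD, n = 4 each), and the change of 2.01 was called (adjusted p = 0.00091). Ifi27, an interferon-induced gene, was at 6.66 to 7.46 in adult and at 5.73 to 6.32 in fetal organoids (1.11 ± 0.18, adjusted p = 0.0004; change 1.26, adjusted p = 0.0053). Ifih1 (0.56 ± 0.11, adjusted p = 0.0019) and Dhx58 (0.55 ± 0.12, adjusted p = 0.006), which encode the RNA sensors MDA5 and LGP2, and Ly6e (0.80 ± 0.13, adjusted p = 0.00034), a membrane protein induced by interferon, were higher as well. Ctss, a lysosomal cathepsin of antigen processing, was at 7.84 to 8.01 in adult and at 6.40 to 7.21 in fetal organoids (1.16 ± 0.17, adjusted p = 0.00013). The adhesion molecule gene Ceacam1 was at 9.80 to 10.12 in adult and at 9.0 to 9.42 in fetal organoids (0.73 ± 0.14, adjusted p = 0.0022; change 1.07, adjusted p = 0.0035). Hsd17b2, which inactivates sex steroids, differed by 0.94 ± 0.26 (adjusted p = 0.022), but not without adult replicate 1 or 2 or fetal replicate 2 or 4 (0.78 to 0.89, adjusted p between 0.063 and 0.091). In all of these but Hsd17b2 the adult and fetal arrays of day 30 did not overlap. The changes of Ctss, Ly6e and Ifih1 were not called without fetal day 3 arrays 2 and 3, and that of Ctss also not in 9 of the 16 fits that left out 1 array.

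**Figure D5:**
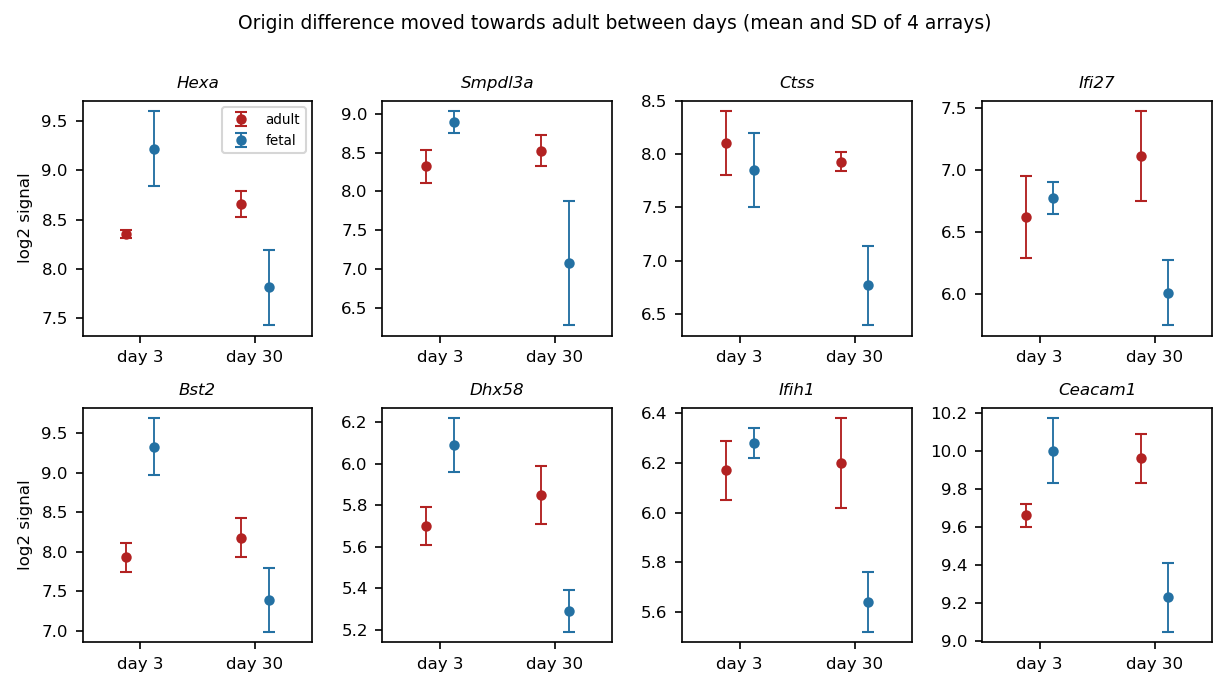
Mean log2 signal with SD of 4 arrays for 8 genes in adult (red, left of each pair) and fetal (blue, right) organoids at day 3 and day 30. The fetal means lie below the adult means at day 30 in all 8 genes, while at day 3 the fetal mean is above the adult mean in all but Ctss, as for Hexa with 8.35 in adult and 9.22 in fetal organoids.

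Metabolic lists showed single genes, where 6.8% of all genes were called higher and 2.17% lower. Fbp1, fructose bisphosphatase of glucose synthesis, was at 8.59, 8.42, 8.42 and 8.25 in adult organoids and at 7.10, 7.64, 7.05 and 5.98 in fetal ones (1.48 ± 0.29, adjusted p = 0.0023), the only call among 11 genes of sugar uptake and fructose metabolism, of which 10 had been higher at day 3. In whole tissue, which also holds cells other than epithelium, Fbp1 runs the other way, with 6.74 ± 0.53 in adult and 9.26 ± 0.16 in P0 intestine (SD, n = 4 each). Of 19 lipid absorption genes, 2 were lower and 0 higher. Slc27a4, a fatty acid transport protein, was at 6.74 to 7.33 in adult and at 7.56 to 8.43 in fetal organoids (-0.97 ± 0.18, adjusted p = 0.0011). Mttp, which loads fat onto lipoproteins, differed by -0.46 ± 0.13 (adjusted p = 0.031), and its call ended without adult replicate 1 or 4 or fetal replicate 1, 2 or 4 (-0.47 to -0.36, adjusted p between 0.055 and 0.13) and with the replicate block (adjusted p = 0.05). The fit of the day 30 arrays alone did not call Mttp either (adjusted p = 0.12).

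Of 15 cholesterol synthesis genes, the enzyme gene Lss (-1.06 ± 0.27, adjusted p = 0.015) and Srebf2, the regulator of the pathway (-0.44 ± 0.12, adjusted p = 0.027), were lower and 0 higher. Both calls ended in fits that left out 1 array. Lss was not called without adult replicate 4 or fetal replicate 2 (-0.88 and -0.82, adjusted p between 0.063 and 0.074). The fit of the day 30 arrays alone did not call Lss either (adjusted p = 0.11). Srebf2 was not called without any 1 of adult replicates 1, 2 and 4 and fetal replicates 2, 3 and 4. Its difference hardly moved in these fits (-0.45 to -0.38, adjusted p between 0.052 and 0.099). Centring also ended the Srebf2 call (adjusted p = 0.06), though its groups did not overlap. Of 30 genes of bile acid and xenobiotic handling only Ces1g was called, and of 15 genes of fatty acid oxidation 0. Slc6a19, an amino acid transporter, was called alone among 17 brush border peptidase and amino acid transport genes (-0.68 ± 0.21, adjusted p = 0.045), and its call ended without any 1 of adult replicates 1 and 4 and fetal replicates 1 to 4 (-0.75 to -0.55, adjusted p between 0.055 and 0.17). Aldh18a1, of proline synthesis, was called alone among 9 genes of arginine and proline synthesis (-0.45 ± 0.12, adjusted p = 0.015; -0.40 with adjusted p = 0.056 without fetal replicate 2). Aqp3, a water channel, was the only call among 19 ion and fluid transport genes (-1.01 ± 0.32, adjusted p = 0.049). That call ended without any 1 array but fetal replicate 1 (-1.06 to -0.73, adjusted p between 0.059 and 0.2).

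Among 22 intestinal transcription factors, 2 were higher and 1 lower, beside 6.8% and 2.17% of all genes. Vdr, the vitamin D receptor, was at 10.01, 10.08, 9.24 and 9.93 in adult and at 9.26, 9.07, 9.32 and 8.73 in fetal organoids, with adult replicate 3 inside the fetal range (0.72 ± 0.19, adjusted p = 0.016), after 2.98 at day 3. Vdr was also the only call among 12 genes of iron, vitamin D and calcium. It was not called without adult replicate 1 or 2 or fetal replicate 4, where it stood at 0.60 to 0.65 with adjusted p between 0.055 and 0.061. Nor was Vdr called in the fit of the day 30 arrays alone (adjusted p = 0.078) or after a second quantile normalization (adjusted p = 0.13). Gata6, a factor of the small intestine, differed by 0.33 ± 0.09 (adjusted p = 0.022), but not without adult or fetal replicate 3 (0.29 and 0.28, adjusted p between 0.076 and 0.09), nor after centring or a second quantile normalization. Foxa1, a factor of endoderm and of secretory cells, was at 6.35 to 6.73 in adult and at 6.99 to 8.07 in fetal organoids (-1.07 ± 0.32, adjusted p = 0.037). Though without overlap, its call ended in 7 of the 8 fits that left out 1 array, all but the one without fetal replicate 1 (-1.15 to -0.90, adjusted p between 0.051 and 0.11).

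Of 29 Hox genes, which set position along the gut, Hoxb7 (-0.40 ± 0.10, adjusted p = 0.016) and Hoxd8 (-0.31 ± 0.09, adjusted p = 0.022) were lower and 0 higher, after 14 lower at day 3. Over all genes, 2.17% were lower and 6.8% higher at day 30, and 10.1% were lower at day 3. Both calls ended without single arrays, Hoxb7 without adult replicate 1 or fetal replicate 1 or 2 (-0.37 to -0.35, adjusted p between 0.056 and 0.067) and Hoxd8 without adult replicate 1 or 2 or fetal replicate 2 (-0.31 to -0.26, adjusted p between 0.057 and 0.094). Of 17 claudin and keratin genes, the tight junction genes Cldn3 (0.47 ± 0.12, adjusted p = 0.013) and Cldn15 (0.51 ± 0.15, adjusted p = 0.039) were higher and 0 lower, neither of them after a second quantile normalization (adjusted p = 0.29 for both). Cldn15 had differed by 3.02 at day 3, and its day 30 call also ended without any 1 of adult replicates 1, 2 and 4 and fetal replicates 1, 3 and 4 (0.45 to 0.53, adjusted p between 0.071 and 0.12). Cdh1, the epithelial cadherin, was slightly lower (-0.31 ± 0.09, adjusted p = 0.03), but not after centring (adjusted p = 0.078) or without any 1 of adult replicates 1, 3 and 4 and fetal replicates 2, 3 and 4 (-0.32 to -0.28, adjusted p between 0.056 and 0.089). Of 13 stress and immediate early genes only Ier2 was called (0.60 ± 0.12, adjusted p = 0.0023).

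Of the 10 liver genes, Ttr, which encodes the thyroxine carrier transthyretin, was higher (0.89 ± 0.19, adjusted p = 0.0048) and Serpina1b, an antitrypsin, lower (-1.42 ± 0.35, adjusted p = 0.012), though Serpina1b was not called without adult replicate 1 or 3 or fetal replicate 3 (-1.23 to -1.17, adjusted p between 0.051 and 0.054). Nor was Serpina1b called in the fit of the day 30 arrays alone (adjusted p = 0.12). Of 11 endothelial genes Lyve1 was called (0.54 ± 0.15, adjusted p = 0.023), but not without adult replicate 1 or 3 or fetal replicate 1, 3 or 4 (0.44 to 0.53, adjusted p between 0.053 and 0.1). Kdr, Tek and Emcn of that list lay below the negative controls in both groups. No call was made among 14 genes of fetal spheroids and regenerating epithelium (median -0.16, after -1.44 with 11 lower at day 3), 22 genes of microbe response, 16 of mucosal glycosylation, 8 of enteric neurons and glia and 3 erythroid genes. In all, 17 of the 43 lists had no call at day 30, and 15 of these had calls at day 3. Over all genes, 6.8% were called higher and 2.17% lower at day 30. Single calls in short lists are thus not read as results about the lists. Leaving the sex-linked genes aside, list medians ran from -0.49 to 0.28 at day 30, against -1.44 to 2.99 at day 3.

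The remaining difference was set beside that between adult and newborn tissue, where 8328 genes were called (27.1%), 1564 of them at least 2-fold (5.09%). Whole tissue also holds cells other than epithelium. Of 15 genes of mesenchyme and smooth muscle, 13 were called lower and 0 higher in adult than in P0 tissue. Of 18 leukocyte genes, 15 were called higher and 1 lower. Of the 2088 genes higher at day 30, 336 (16.1%) were called higher and 331 (15.9%) lower in adult than in P0 tissue, where 15% and 12.2% of all genes were. Of the 666 lower ones, 182 (27.3%) were called lower and 118 (17.7%) higher in adult tissue. The larger differences followed it more often by count: of the 75 genes at least 2-fold higher, 36 were called higher in adult tissue, 6 lower and 33 not called, and of the 40 at least 2-fold lower, 21 were called lower, 3 higher and 16 not called. The difference between these shares was not tested. Oit1 and Glod5 were higher in adult tissue as well (4.39 and 3.06), whereas Ifitm3 (-0.41, adjusted p = 0.29) and Plbd1 (-0.03, adjusted p = 0.94) were not called there.

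A tissue maturation score was taken as the mean log2 level of the 798 genes that adult tissue had at least 2-fold above P0 tissue (2.6% of all), less the mean of the 766 it had at least 2-fold below (2.49%). It was 0.75, 0.80, 0.80 and 0.81 on the adult arrays of day 30 and 0.54, 0.65, 0.44 and 0.65 on the fetal ones. All adult arrays were above all fetal arrays, by a mean of 0.22 (exact two-sided permutation test, p = 0.0286, the smallest that 4 against 4 arrays can give). At day 3 the score was 0.88 ± 0.13 in adult and -0.28 ± 0.12 in fetal organoids, and tissue scored 2.02 ± 0.06 in adults and -1.88 ± 0.16 at P0 (SD, n = 4 each).

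Some microRNA genes differed by origin at day 30. The array measures precursor and host transcripts here, not the mature microRNAs that pair with target messages through their seed, bases 2 to 8. Of 923 microRNA genes tested, 43 were called (4.66%, against 8.97% of all genes), 15 higher and 28 lower in adult organoids, and a mature RefSeq sequence was at hand for 36 of the 43. Mature sequences of 5 are shown 5′ to 3′ with the seed in capitals, because the first 2 share a seed while their genes differed in opposite directions. They were named after their values were seen.
miR-192-5p: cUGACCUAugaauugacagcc
miR-215-5p: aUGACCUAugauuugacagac
miR-296-5p: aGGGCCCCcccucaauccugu
miR-200a-3p: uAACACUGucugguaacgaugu
let-7d-5p: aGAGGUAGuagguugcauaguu
In GRCm38.p6, miR-192-5p lies at chr19:6264857-6264877 and miR-215-5p at chr1:185313610-185313630, both on the plus strand. On the minus strand lie miR-296-5p at chr2:174267093-174267113, miR-200a-3p at chr4:156054911-156054932 and let-7d-5p at chr13:48536078-48536099.

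Both miR-192 and miR-215 are known as microRNAs of gut epithelium. Mir192 was at 5.45, 6.76, 5.02 and 6.47 in adult organoids and at 7.80, 7.82, 7.47 and 7.09 in fetal ones (-1.62 ± 0.34, adjusted p = 0.0036), while Mir215 was at 8.54, 9.34, 8.90 and 8.63 in adult and at 8.32, 7.84, 7.76 and 7.94 in fetal organoids (0.89 ± 0.22, adjusted p = 0.013). Neither gene overlapped between the groups, and the call of Mir215 ended without adult replicate 2 (0.73, adjusted p = 0.051). At day 3 Mir192 had not been called (-0.65, adjusted p = 0.18) and Mir215 had (1.05, adjusted p = 0.0012). Mir296, which lies in the imprinted Gnas region, had the smallest adjusted p of the genes named here, with 4.76, 4.67, 4.62 and 4.91 in adult and 6.43, 6.38, 6.34 and 6.48 in fetal organoids (-1.67 ± 0.13, adjusted p = 1.8e-07). The arrays of each group lay close together, and the difference was -1.88 at day 3. Mir200a, of the epithelial miR-200 family, was at 4.80 to 5.88 in adult and at 6.25 to 7.19 in fetal organoids (-1.45 ± 0.29, adjusted p = 0.0021), but not called at day 3 (-0.01, adjusted p = 0.99). Its neighbour Mir200b was at 5.03 ± 0.69 in adult and 6.03 ± 0.47 in fetal organoids (SD, n = 4 each) and was not called (-0.99 ± 0.34, adjusted p = 0.076), but was without adult replicate 2 (-1.20, adjusted p = 0.041), without fetal replicate 4 (-1.19, adjusted p = 0.038) and with the filter on dim genes (adjusted p = 0.049). Mir200b was weaker without adult replicate 1 (-0.69, adjusted p = 0.29), and its adjusted p was 0.15 in the fit of the day 30 arrays alone. Of 11 let-7 genes, whose products rise with maturation in many tissues, only Mirlet7d was called (0.62 ± 0.16, adjusted p = 0.018), and not without adult replicate 2 or 4 or fetal replicate 2 or 3 (0.52 to 0.56, adjusted p between 0.06 and 0.071). At day 3 Mirlet7d had not been called (-0.06, adjusted p = 0.86).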

How the data were processed

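RNA of 24 samples in 6 groups of 4 was measured on Affymetrix arrays, 1 array a sample. Per the submitters' processing notes, the authors made the deposited log2 signals by RMA (background correction, normalization between arrays, summary over probes) in Affymetrix Expression Console. No source used here gives versions, and scanner intensities were not used. Of 72688 probe sets, 6732 were controls, and of 65956 transcript clusters 31258 named 1 gene, 1492 several and 33206 none. Symbols were updated for 1173. For 441 genes with several clusters the one with the highest mean was used, which left 30702 genes. Muc2 and Ass1 had no cluster of their own and are not reported.

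The deposited log2 values were fitted with limma 3.58.1 in R 4.3.3 (lmFit and eBayes, 6 group means, 18 residual and 4.25 prior degrees of freedom), without a filter and without a replicate block. Adjusted p-values are limma's, with Benjamini-Hochberg adjustment over all 30702 genes, and the threshold was 0.05. Tables and figures were made with Python 3.11.15, pandas 2.3.3, numpy 2.4.6, scipy 1.17.1 and matplotlib 3.10.9. A level was held to be below background where a group's mean was under the mean of its arrays' negative control medians, and a fold against such a level is a bound. A summed level is the log2 of the summed linear signals of a list. Genes were named by rule: a panel of 14 genes, the largest differences without overlap, the genes largest at both days, the largest changes between days, and called members of the lists. All other genes in the text were named after their values were seen. The members and lists were chosen with earlier results of these data known. In simulated data of this size, 93 of 100 genes shifted by 1 log2 unit and 59 of 100 shifted by 0.5 were called. Alternatives were another choice of clusters, a filter on dim genes, a trended prior, the compared groups alone, array weights, centring, a replicate block, quantile normalization applied again, a stricter threshold and leaving out each array. The 4 arrays a group limit the precision.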

Additional observations from a re-analysis of the deposited data

Results flagged for a closer look

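The origin difference changed between day 3 and day 30, by limma's test of the change, for 44 of the named genes. Some were named for such a change, so this count does not compare with the 2.99% of all genes. The values that follow are the origin difference at day 30 minus that at day 3 on the log2 scale. A negative change was found in Cyp3a11 (-5.39), Sis (-4.78), Cyp3a25 (-4.67), Reg3a (-4.53), Cyp4f14 (-3.74), Arg2 (-3.7), Treh (-3.3), Cldn15 (-2.51), Vdr (-2.26), Fbp1 (-2.01), Lyz1 (-1.8), Glod5 (-1.72), Klk1 (-1.55), Casp1 (-1.46), Syna (-1.13) and Tnfrsf19 (-0.48). A positive change was found in Tfec (4.5), a transcription factor, and Ly6d (3.88), a surface protein, both lower in adult organoids at day 3 and not called at day 30. It was also found in other genes lower in adult organoids at day 3, Mamdc4 (2.7), Nid1 (2.49), Dab2 (2.47), Folr1 (2.3), Slc28a2 (1.72), Slc28a2b (1.56), Gpc3 (1.53), Cubn (1.53), Igf2bp3 (1.22), Arid3a (0.98) and Lrp2 (0.97) and in the imprinted genes Grb10 (1.99), Peg3 (1.88), Igf2 (1.49) and Plagl1 (0.98). Lysosomal and interferon-induced genes with a positive change were Bst2 (2.19), Smpdl3a (2.01), Hexa (1.72), Ifi27 (1.26), Dhx58 (0.94), Ctss (0.9), Ly6e (0.85), Ifih1 (0.67) and Lamp2 (0.48), and others were Hsd17b2 (1.63) and Ceacam1 (1.07). The changes of Lyz1, Syna, Gpc3, Cubn, Tnfrsf19, Klk1 and Ctss were not called in 7 to 12 of the 16 fits that left out 1 array. Those of Lyz1, Syna, Gpc3, Cubn, Igf2bp3, Slc28a2, Tnfrsf19, Klk1, Fbp1, Ctss, Ly6e and Ifih1 were not called without fetal day 3 arrays 2 and 3. Tfec and Lrp2 lay below the negative controls in both day 30 groups and in adult organoids at day 3, and Cubn in adult organoids at day 3, so that the sizes of their changes are not exact.

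Among the 228 groups of 4 arrays of the named genes, 10 had 1 array far from the other 3, where chance gives about 1 in 20. The adult arrays were replicate 3 of Mmp7 (10.17), Sema7a (8.65) and Gata6 (8.57), replicate 4 of Syna (5.5) and replicate 1 of Cyp3a11 (6.93). The fetal arrays were replicate 2 of Plagl1 (5.81), replicate 3 of Hoxb7 (4.88), Gata6 (7.95) and Casp1 (8.3), and replicate 4 of Kdm5d (4.61). All but the Gata6 value of adult replicate 3 were low.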

How the results depend on the processing

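The counts of genes at least 2-fold higher (57 to 93) or lower (27 to 45) at day 30 stayed within 1.5 times of 75 and 40 in every alternative run. The count of all higher genes at day 30 was 1228 with the compared groups alone, 1365 after a second quantile normalization and 1056 at an adjusted p under 0.01, and 1441 to 2320 with 1 array left out. That of lower genes was 386, 1246 and 233 in the same settings, and 369 to 650 with 1 array left out. At an adjusted p under 0.01 there were 4806 calls at day 3, 422 changes between the days and 5377 calls between tissues. Changes between the days numbered 1400 with array weights and 563 without fetal day 3 arrays 2 and 3. Genes called at both days in the same direction, 2028 in all, numbered 1178 with the compared groups alone and 968 at the stricter threshold. Genes called at day 30 and between tissues in the same direction, 518 in all, numbered 326 with the compared groups alone, 793 with array weights and 207 at the stricter threshold. The score difference, 0.22 in the report, was 0.34 when limited to genes that differed at least 4-fold between tissues, 0.33 when the median replaced the mean, 0.32 when limited to genes brighter than the organoid median, and 0.18 to 0.25 with 1 array left out, where the smallest possible exact p is 0.0571. Without members of the lists of other cell types the score difference was again 0.22. Of 114 named genes 83 were called at day 30, 48 of them in every alternative at the threshold of 0.05. Many were named for a called difference, so this count does not compare with the 8.97% of all genes. No named gene changed direction where it was called in the report or in the alternative. The choice of called genes, many without overlap, largely fixed this beforehand, so it is no separate support. Genes called in neither were not compared for direction. Beyond the genes for which this is stated above, the fit of the day 30 arrays alone also ended further calls. These were the calls of Ctrb1, Clps, Lamp2, Tnfrsf19, Hoxb7, Hoxd8, Slc6a19, Aqp3, Lyve1, Hsd17b2 and Mirlet7d. With the replicate number as a block, 1999 genes were higher and 616 lower at day 30. Same-numbered adult and fetal arrays did not deviate together from their group means (correlations -0.035, -0.226, -0.306 and -0.264). Some arrays of unlike number did, such as adult replicate 3 with fetal replicate 4 (0.455) and adult replicate 2 with fetal replicate 1 (0.348). Others went against each other, as adult replicate 3 and fetal replicate 1 (-0.419). The labels state no pairing, and such correlations cannot decide it. The causes of these shifts were not tested, and the signal over background limits the genes near the negative controls.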

Other observations

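Groups of genes that no list covered were counted after their values were seen. Genes of the respiratory chain and of ribosomes were among the many small rises in adult organoids at day 30. Of 38 subunit genes of respiratory complex I, which passes electrons from NADH to ubiquinone, 21 were higher and 0 lower (median 0.36), against 7 higher after a second quantile normalization. Of 72 genes of mitochondrial ribosomal proteins 32 were higher and 0 lower (median 0.29), and 20 higher after that normalization. Of 30 genes of cytosolic ribosomal proteins 15 were higher and 0 lower (median 0.25), and 6 higher after it. Of 16 Atp5 genes, which encode subunits of ATP synthase, 5 were higher and 0 lower (median 0.23), and 2 higher and 2 lower after it. Solute carriers leaned the other way, with 4 of 372 higher and 23 lower (median -0.03), and 3 higher and 35 lower after it. Over all genes, 6.8% were higher and 2.17% lower.

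Transcripts with no known protein made up much of the rest of the higher calls. Against 6.8% higher and 2.17% lower over all genes, 621 of 4430 pseudogenes were higher and 27 lower in adult organoids. After a second quantile normalization 416 were higher and 77 lower. Of 914 small nuclear RNA genes 160 were higher and 0 lower, and 74 higher and 2 lower after that normalization. Many of these are near-identical copies whose probes may share signal, so that they do not count as independent genes.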
